A study of Mus musculus with 2 samples.

Results

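The genes described here are 33 listed genes: 32 of the smooth muscle contractile apparatus, and Myocd, the coactivator that drives many of them. They were found by symbol among the 32285 features of 2 droplet-based single-cell RNA libraries of whole mouse aorta, and all 33 were present. The Cept1 library came from male C57BL6 mice of genotype Cept1fl/fl Cre+, in which VE-cadherin-Cre-ERT2, a tamoxifen-inducible recombinase driven from an endothelial promoter, was induced to overexpress Cept1 in endothelial cells. The control library came from Cept1fl/fl Cre- mice, so both groups carried the floxed Cept1 allele. The protocol, given in the same words for both groups, has male littermates injected daily for 5 days with 1 mg tamoxifen per mouse and left to recover for 5 days, from an age of at least 8 weeks, whereas the age label reads 6 to 8 weeks. Aortas of 3 mice per condition were digested and captured with 10x 3' v3 chemistry, with 1 library per group, and neither pooling nor the gate of the sort is given in the sources used here. With 1 library per group no test was possible, differences have no replicate check, and every interval is an exact 95% interval that covers counting error only.

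Smooth muscle shortens when calcium entering through channels activates calmodulin and myosin light chain kinase, which phosphorylates the regulatory light chain so that smooth muscle myosin can pull on actin filaments. Tropomyosin, caldesmon and calponin sit on those filaments, and dense bodies and adhesion plaques tie them to the membrane. Serum response factor (SRF) binds CArG boxes near many of these genes, and Myocd, which binds SRF rather than DNA, is the coactivator that sets the contractile programme in vascular smooth muscle.

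Promoter sequences of the genes are shown because the CArG box is the element through which Myocd and SRF act. The RefSeq promoter table (GRCm38.p6), which covers 250 bases before to 50 bases after each annotated start, held 29 of the 33 genes, and Myocd, Actg2, Myh11 and Tagln were not among them. A full CArG box, whose pattern reads the same on both strands, was found in 5 of the 29 genes (17.2%), against 488 of 27025 gene symbols in the table (1.81%). A match is a description of letters in the window, not a shown binding site. The stretches below run 5' to 3', with the box in capitals. The box began 161 bases before the annotated start in Myl9, 50 in Myl6, 227 in Vcl, 35 or 109 from either of 2 starts in Ldb3, and 99 in Myom1. Acta2 held no full box in its window, and its line marks a pair of boxes with 1 departure each. A box with at most 1 departure was found in 13 of the 29 genes (44.8%) and in 23.8% of all symbols.
Myl9, chr2:156775273-156775342, plus strand: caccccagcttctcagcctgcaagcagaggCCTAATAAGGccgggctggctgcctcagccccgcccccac
Myl6, chr10:128493020-128493089, minus strand: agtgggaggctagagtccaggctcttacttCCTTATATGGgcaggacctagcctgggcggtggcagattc
Vcl, chr14:20929148-20929210, plus strand: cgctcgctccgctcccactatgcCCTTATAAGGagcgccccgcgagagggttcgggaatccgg
Ldb3, chr14:34588677-34588746, minus strand: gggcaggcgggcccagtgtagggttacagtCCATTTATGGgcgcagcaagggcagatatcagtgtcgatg
Myom1, chr17:71019428-71019497, plus strand: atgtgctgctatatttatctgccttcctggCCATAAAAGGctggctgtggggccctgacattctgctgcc
Acta2, chr19:34255368-34255487, minus strand: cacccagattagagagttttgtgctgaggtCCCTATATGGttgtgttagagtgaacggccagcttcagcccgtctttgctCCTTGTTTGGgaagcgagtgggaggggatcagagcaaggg

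The Cept1 library held 17728 barcodes and 95735360 unique molecular identifiers (UMIs, each standing for a captured RNA molecule), and the control library 14349 barcodes and 88220524 UMIs. After filters and removal of called doublets, 10635 cells of the Cept1 library remained, with a median of 6301 UMIs, and 8546 cells of the control library, with a median of 6685 UMIs. The libraries had 74 barcode sequences in common, 29 of them among the kept cells. Cells were placed in a class by counting how many of its marker genes had a UMI, with none of the 33 genes among the markers. The smooth muscle gate required 6 of 15 markers and gave 583 cells (5.48% of the library) in the Cept1 library and 503 cells (5.89%) in the control library. The median depths were 10911 UMIs in the Cept1 and 15936 UMIs in the control library. Npnt, Ramp1 and Rasl12 were seen in over 90% of these cells in both libraries, Nrip2, Casq2 and Olfr558 in at most 5.32%. A single cluster of an ungated clustering held 555 of the gated cells of the Cept1 library and 472 of those of the control library. Levels are UMIs of a gene as counts per 1000000 UMIs of the class (CPM). Cept1 itself was at 129 CPM in endothelial cells of the Cept1 library and 78.6 CPM in those of the control library, a log2 ratio of 0.71 (0.54 to 0.89). In smooth muscle it was at 43.1 CPM in the Cept1 and 34.9 CPM in the control library (0.30, 0.06 to 0.54). Its ratio was 0.36 (0.05 to 0.65) in T or NK cells, 0.18 (0.06 to 0.31) in macrophages and 0.14 (0.03 to 0.25) in fibroblasts. The intervals of lymphatic endothelial cells (0.12, -0.20 to 0.44) and B cells (-0.17, -0.61 to 0.24) included 0.

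In smooth muscle cells the contractile programme was present in both libraries at similar levels. None of the 33 genes reached a log2 ratio of 0.5 in either direction, the threshold used here together with at least 50 UMIs. Among all 11010 genes measured in smooth muscle, 3.78% were higher by that margin and 5.40% lower. With a minimum of 200 UMIs, which all 33 genes met, 4.54% of all genes were past it in either direction. The ratios of the 33 genes ran from -0.35 to 0.47 with a median of -0.04, beside a median of -0.03 over all genes. Of the 33 intervals, 8 lay above 0, 16 lay below 0 and 9 included 0. Summed, the 33 genes took 6.97% of smooth muscle UMIs in the Cept1 library against 7.47% in the control library. Per cell their share ranged from 2.00% to 14% around a median of 6.93% in the Cept1 library, against 1.99% to 14.7% around 7.44% in the control library. The spread between cells of a library was wider than the distance between the medians.

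**Figure D1:**
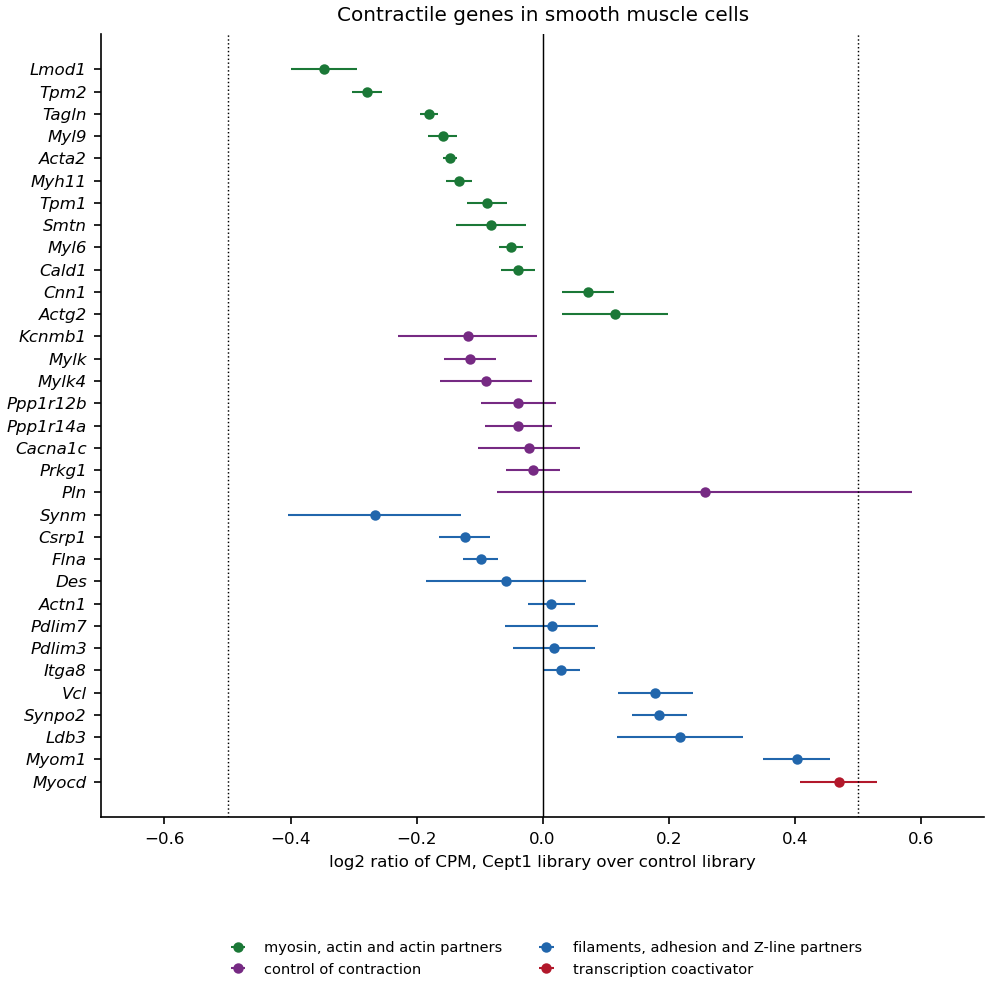
Log2 ratio of CPM in smooth muscle cells, Cept1 library over control library, for each of the 33 genes, coloured by role; points are ratios, bars are exact 95% counting intervals, and dotted lines mark ratios of 0.5 and -0.5. Every point lies between the dotted lines, from Lmod1 at -0.35 to Myocd at 0.47, and 10 of 12 genes of the myosin and actin group lie below 0.

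The group of myosin, actin and the proteins that sit on actin was slightly lower as a whole, with 10 of 12 intervals below 0 and a median log2 ratio of -0.11. Myh11, the heavy chain of smooth muscle myosin (chr16:14194535-14291372, minus strand, GRCm38), was at 4774 CPM in the Cept1 library and 5235 CPM in the control library (log2 ratio -0.13, -0.15 to -0.11). Acta2, the alpha actin of vascular smooth muscle (chr19:34241090-34255590, minus strand), was at 15564 CPM in the Cept1 library and 17237 CPM in the control library, a ratio of -0.15. Tagln, an actin-binding protein also called SM22 (chr9:45929619-45936058, minus strand), was at 10429 CPM in the Cept1 library and 11814 CPM in the control library, a ratio of -0.18. Tagln is 1 of 15 of the 33 genes whose span overlaps a gene on the other strand, in its case Pcsk7. The strand setting of the counting is not given, and whether reads of the overlapping genes entered these counts was not tested. Myh11, Acta2 and Tagln are the genes most often used to mark the contractile state, and all 3 differed by less than the fold used here. The myosin light chains lay on the same side, Myl9 at -0.16 and Myl6 at -0.05, as did Tpm1 (-0.09), Cald1, the caldesmon gene (-0.04), and Smtn, smoothelin (-0.08).

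The lowest pair of ratios in this group belonged to Lmod1 and Tpm2. Lmod1 encodes leiomodin, which nucleates actin filaments, and had 703 CPM in the Cept1 library against 895 CPM in the control library (-0.35, -0.40 to -0.29). Tpm2, a tropomyosin, had 3429 CPM in the Cept1 library against 4161 CPM in the control library (-0.28, -0.30 to -0.25). Cnn1, calponin, went the other way with 1289 CPM in the Cept1 and 1227 CPM in the control library (0.07, 0.03 to 0.11). So did Actg2, the gamma actin of visceral muscle, with 324 CPM in the Cept1 library and 299 CPM in the control library (0.11, 0.03 to 0.20). With cells thinned to 2000 UMIs, Actg2 had a UMI in 32.1% of smooth muscle cells of the Cept1 library and 33.4% of those of the control library.

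Genes that switch contraction on and off differed little. Mylk, the light chain kinase, had 1198 CPM in the Cept1 library and 1298 CPM in the control library (-0.11, -0.16 to -0.07). Mylk4, a related kinase gene, had 393 CPM in the Cept1 and 418 CPM in the control library (-0.09). The intervals of Ppp1r12b, a targeting subunit of myosin phosphatase (-0.04), Ppp1r14a, its inhibitor CPI-17 (-0.04), Prkg1, the cGMP-dependent kinase through which nitric oxide relaxes the muscle (-0.02), and Cacna1c, the pore of the L-type calcium channel (-0.02), all included 0. Kcnmb1, the beta subunit of the BK potassium channel, had 173 CPM in the Cept1 library and 187 CPM in the control library (-0.12, -0.23 to -0.01), and its ratio was above 0 under 3 alternatives, from 0.08 to 0.13. Pln, phospholamban, which restrains the calcium pump of the internal store, rested on 151 UMIs in the Cept1 and 162 UMIs in the control library, and its ratio of 0.26 had an interval from -0.07 to 0.59. It was -0.26 under a stricter cell filter (1000 genes, 5% mitochondrial UMIs), 0.53 with cells thinned to 2000 UMIs and 0.68 in cells with at most 1 marker of another class. It had a UMI in 4.12% of thinned smooth muscle cells of the Cept1 library and 2.80% of those of the control library.

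Genes of filaments, adhesion plaques and Z-line-like structures lay on both sides of 0, with 5 intervals above it, 3 below it and 4 including it. Myom1, a myomesin known from the M-band of striated muscle, stood highest with 879 CPM in the Cept1 library and 665 CPM in the control library (0.40, 0.35 to 0.46). Ldb3, a Z-line PDZ-LIM protein, had 234 CPM in the Cept1 and 202 CPM in the control library (0.22, 0.12 to 0.32). Synpo2, an actin-bundling protein, had 1185 CPM in the Cept1 and 1042 CPM in the control library (0.19). Vcl, vinculin of adhesion plaques, had 648 CPM in the Cept1 and 572 CPM in the control library (0.18). Synm, the intermediate filament protein synemin, had 108 CPM in the Cept1 library against 129 CPM in the control library (-0.27, -0.40 to -0.13). Csrp1, a LIM protein of actin bundles (-0.12), and Flna, filamin A, which cross-links actin (-0.10), also had intervals below 0. Des, desmin, was at 135 CPM in the Cept1 library and 140 CPM in the control library, and its interval included 0, as did those of Actn1, alpha-actinin, and of the PDZ-LIM genes Pdlim3 and Pdlim7, each at 0.01 or 0.02. Itga8, the alpha 8 integrin subunit, was at 0.03 (0.00 to 0.06). Of the 5 genes with a full CArG box, Myom1, Ldb3 and Vcl had intervals above 0 and Myl9 and Myl6 below it.

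Myocd had the highest ratio of the set in smooth muscle. It stood at 678 CPM in the Cept1 library (4497 UMIs) and 489 CPM in the control library (4162 UMIs), a log2 ratio of 0.47 (0.41 to 0.53), just inside the threshold. A UMI of Myocd was found in 546 of 583 cells (93.7%) of the Cept1 library and 472 of 503 cells (93.8%) of the control library, with a median of 6 per cell in both. After thinning to 2000 UMIs the shares were 61.0% (56.9 to 65.0) in the Cept1 library and 54.2% (49.7 to 58.6) in the control library. With the level seen in T or NK cells subtracted as free RNA, the ratio in smooth muscle was 0.38. Under the stricter cell filter, which left 181 smooth muscle cells of the Cept1 library and 203 of the control library, it was 0.59 and so past the threshold.

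Other genes of the same pathways gave few ratios past the threshold in smooth muscle. Among SRF cofactors and regulators of the contractile state none of 20 measured genes passed, with a median of 0.04. The largest were Yap1, a Hippo pathway coactivator (0.39), Mrtfb, a coactivator related to Myocd (0.34), Hes1 (-0.29) and Rbpj (0.27) of Notch signalling. Srf itself was at 18.2 CPM in the Cept1 library and 18.5 CPM in the control library (-0.02). Among RhoA, ROCK and myosin phosphatase genes 1 of 16 passed. It was Rgs5, a regulator of G protein signalling, with 1346 CPM in the Cept1 library against 2067 CPM in the control library (-0.62, -0.66 to -0.58), followed by Dapk3 (-0.24), Rock1 (0.20) and Arhgef11 (0.18). Rgs5 is also 1 of the 8 pericyte markers. Their summed level in the smooth muscle class, Rgs5 included, was 1618 CPM in the Cept1 library and 2337 CPM in the control library. None of the 8 was at 0. Rgs5 made up most of that sum in both libraries, so the sum is no separate measure of pericyte RNA. None of 16 genes of calcium handling, channels and relaxation passed, the largest being Kcna5 (0.39), Pde5a (0.24), Ednra (-0.23) and Kcnma1 (-0.23). Of 27 other cytoskeletal genes Tpm4, a tropomyosin, passed with 232 CPM in the Cept1 library and 159 CPM in the control library (0.54), followed by Filip1l (0.37), Myl12a (0.28) and Sorbs3 (-0.25).

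Genes that mark smooth muscle when it leaves the contractile state gave the largest ratios of the 5 lists, with 5 of 15 higher, 1 lower and a median of 0.26, beside 3.78% of all genes higher and 5.40% lower. Those past the threshold on the higher side were at low levels, and the most abundant genes of the list lay the other way. Fn1, fibronectin, was at -0.24, Mgp, matrix Gla protein, at -0.23, Vim, vimentin, at -0.20 and Sparc at -0.17, each with an interval below 0. Less abundant than these, S100a4 was higher, with 580 CPM in the Cept1 library and 455 CPM in the control library (0.35, 0.28 to 0.41). Tagln2 had 462 CPM in the Cept1 and 452 CPM in the control library (0.03, -0.04 to 0.10). Mmp3, a matrix metalloproteinase, had 7.84 CPM in the Cept1 library and 3.41 CPM in the control library (1.20, 0.52 to 1.91). Ly6a had 8.59 CPM in the Cept1 and 4.23 CPM in the control library (1.02). Lgals3, galectin-3, had 48.5 CPM in the Cept1 library and 28.6 CPM in the control library (0.76, 0.52 to 1.01). Ecrg4 rested on 36 UMIs in the Cept1 and 30 UMIs in the control library, and its interval included 0 (0.62, -0.12 to 1.37). Lum, also a fibroblast marker of the gate, had 14.3 CPM in the Cept1 and 9.41 CPM in the control library (0.61, 0.16 to 1.05). Col8a1, a collagen chain, had 19.4 CPM in the Cept1 library against 34.1 CPM in the control library (-0.81). Markers of some other cells were higher too. The summed level of 8 fibroblast markers, Lum among them, in the smooth muscle class was 2002 CPM in the Cept1 library and 1770 CPM in the control library. That of 8 macrophage markers was 59.7 CPM in the Cept1 and 25.4 CPM in the control library, with none of either list at 0. The 6 platelet markers summed to 45.7 CPM in the Cept1 and 18.9 CPM in the control library with none at 0. The 7 cardiomyocyte markers summed to 73.7 CPM in the Cept1 and 37.0 CPM in the control library with Nppa and Myl7 at 0 in a library. The part of these cells in the result was not tested. The 8 endothelial markers summed to 55.3 CPM in the Cept1 library and 55.2 CPM in the control library, with Robo4 at 0 in a library. Lymphatic endothelial markers were higher, with 154 CPM in the Cept1 and 113 CPM in the control library. Neutrophil markers were lower, with 10.9 CPM in the Cept1 and 15.5 CPM in the control library. Adipocyte markers were lower as well, with 165 CPM in the Cept1 and 180 CPM in the control library.

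Outside smooth muscle the 33 genes had to be read against free RNA, which is carried into every droplet and keeps genes from the same source in a fixed ratio. Each gene's level in a class was therefore set as a percentage of its level in smooth muscle of the same library. In T or NK cells and B cells, which do not build a contractile apparatus, 19 genes including Myh11, Acta2, Tagln, Cnn1 and Lmod1 stayed at or below 1% in both classes and both libraries. Their median was 0.33% in T or NK cells of the Cept1 library and 0.19% in those of the control library, and in B cells 0.41% in the Cept1 and 0.24% in the control library. This level served as the floor, and it was higher in the Cept1 library. Myh11 lay at 0.26% in T or NK cells of the Cept1 library and 0.20% in those of the control library. With cells thinned to 2000 UMIs, it had a UMI in 2.49% (0.92 to 5.34) of T or NK cells of the Cept1 library and 2.74% (1.60 to 4.35) of those of the control library. Acta2 had one in 10.4% (6.83 to 14.9) in the Cept1 and 5.80% (4.09 to 7.94) in the control library. Without thinning its shares were 20.6% in the Cept1 and 20.5% in the control library.

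**Figure D2:**
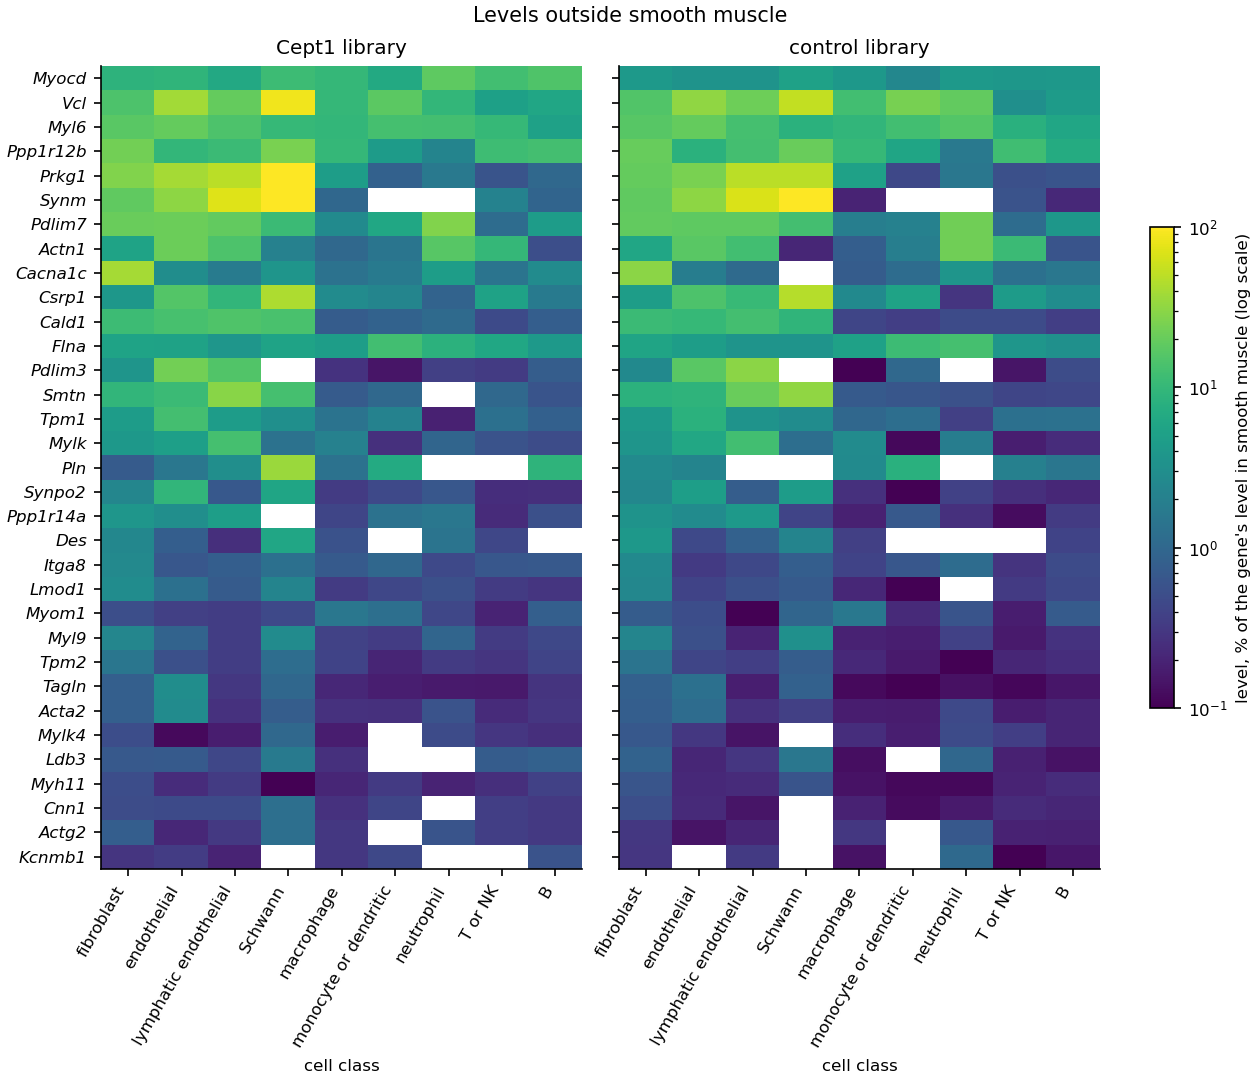
Level of each gene in 9 cell classes as a percentage of its own level in smooth muscle of the same library, on a log colour scale from 0.1% to 100% (values beyond either end take the end colour), with the Cept1 library left, the control library right, and white for 0 UMIs. Restricted genes such as Myh11 and Cnn1 are dark in most classes, shared genes such as Vcl and Myl6 are bright in most, and Myocd in the top line has a similar tone across the classes of a library, brighter in the Cept1 library.

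Several genes stood far above the floor in other classes. At 5% or more of the smooth muscle level in both libraries were 11 genes in fibroblasts, 12 in endothelial cells, 12 in lymphatic endothelial cells, 10 in Schwann cells (Myocd among them), 3 in macrophages, 3 in T or NK cells and 2 in B cells. Myl6, the essential light chain used by nonmuscle myosin too, was at 17.2% in fibroblasts of the Cept1 library and 16.6% in those of the control library. It was at 9.72% in macrophages and 10.1% in T or NK cells of the Cept1 library, against 9.43% and 7.95% in the control library. Ppp1r12b, the phosphatase subunit, was near 10% in macrophages (9.85% in the Cept1 library, 10.3% in the control library) and near 12% in T or NK cells (11.8% in the Cept1 and 12% in the control library). Cacna1c reached 39.2% in fibroblasts of the Cept1 library and 30.3% in those of the control library. Synm reached 71.1% in lymphatic endothelial cells of the Cept1 library and 67.5% in those of the control library. It exceeded its smooth muscle level in Schwann cells, at 179% on 48 UMIs in the Cept1 and 110% on 45 UMIs in the control library. Smtn was at 29.2% in lymphatic endothelial cells of the Cept1 library and 20.8% in those of the control library.

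The pericyte class, a mural cell related to smooth muscle, held 19 cells in the Cept1 library against 15 in the control library and is given as levels only. Myh11 was at 55.2% of the smooth muscle level in pericytes of the Cept1 library and 50.2% in those of the control library. Cacna1c was at 514%, Prkg1 at 300% and Actg2 at 172% in the Cept1 library, against 397%, 250% and 156% in the control library. Myocd had 53 UMIs in pericytes of the Cept1 library (49.0%) and 8 in those of the control library (11.9%). Itga8, in contrast, was at 4.04% in the Cept1 and 4.49% in the control library. Mylk4 had 0 UMIs in the Cept1 library, which allows up to 18.8 CPM, and 1 UMI in the control library. Pericytes carried the contractile genes in other proportions than smooth muscle in both libraries.

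In fibroblasts, the class with most cells (4831 in the Cept1 library, 3622 in the control library), the contractile genes differed little between libraries. Of 31 measured genes 3 were past the threshold, against 8.57% of all genes in either direction. Myocd was 1 of the 3. Actg2 had 77 UMIs in the Cept1 library against 26 in the control library (1.50, 0.84 to 2.20). Des, in contrast, had 99 UMIs in the Cept1 and 159 UMIs in the control library (-0.75, -1.13 to -0.38). Myh11 was at 24.1 CPM in the Cept1 library and 32.4 CPM in the control library (-0.42). Acta2 was at 124 CPM in the Cept1 and 136 CPM in the control library (-0.13), and both genes were under 1% of the smooth muscle level. Prkg1 had 312 CPM in fibroblasts of the Cept1 library and 233 CPM in those of the control library (0.42, 0.37 to 0.47). Cacna1c had 128 CPM in the Cept1 and 101 CPM in the control library (0.35).

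In endothelial cells, the cells targeted for Cept1 overexpression, 11 of 26 measured genes were past the threshold and all 11 were higher in the Cept1 library, against 11.5% of all genes past it in either direction. Acta2 had 433 CPM in the Cept1 library and 197 CPM in the control library, a log2 ratio of 1.13 (1.03 to 1.24). Tagln had 310 CPM in the Cept1 and 153 CPM in the control library (1.02, 0.90 to 1.14). Synpo2 had 113 CPM in the Cept1 library and 50.5 CPM in the control library (1.16, 0.95 to 1.37). Prkg1 (0.65) and Tpm1 (0.51) followed, both well expressed in endothelial cells of either library. These levels were above the free RNA floor: Acta2 and Tagln stood at 2.78% and 2.98% of their smooth muscle level in the Cept1 library and at 1.14% and 1.30% in the control library. Myh11 stayed at the floor, with 11.4 CPM in the Cept1 library and 11.7 CPM in the control library (-0.04, -0.53 to 0.47), at 0.24% in the Cept1 and 0.22% in the control library.

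The other genes past the threshold in endothelial cells were at low levels. Lmod1 had 77 UMIs in the Cept1 library against 17 in the control library (1.32, 0.55 to 2.18) and stood at 1.29% of the smooth muscle level in the Cept1 and 0.40% in the control library. Cnn1 (1.12), Itga8 (1.05), Cacna1c (0.63) and Myl9 (0.57) were at 0.47% to 2.92% in the Cept1 library and 0.23% to 1.86% in the control library, and the interval of Cacna1c included 0. Vcl was just inside the threshold with 247 CPM in the Cept1 library and 180 CPM in the control library (0.46, 0.34 to 0.57). Mylk was lower in the Cept1 library, with 58.8 CPM in the Cept1 and 82.4 CPM in the control library (-0.49, -0.68 to -0.29). Kcnmb1 had 5 UMIs in the Cept1 library against 0 in the control library, where 0 allows up to 0.639 CPM.

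The endothelial class was a mixture, and its makeup differed between libraries. The subsets were defined after the values of the whole class were seen. Cells with arterial genes (at least 2 of Bmx, Gja5, Gkn3 and Cytl1 with at most 2 capillary genes) were 726 of 1090 (66.6%) in the Cept1 library and 265 of 504 (52.6%) in the control library. Cells with capillary genes (at least 3 of Gpihbp1, Rgcc, Cd36, Fabp4 and Kdr with at most 1 arterial gene) were 289 (26.5%) in the Cept1 and 187 (37.1%) in the control library. Within the arterial cells Acta2 was at 496 CPM in the Cept1 library and 279 CPM in the control library (0.83, 0.72 to 0.95), and Tagln at 347 CPM in the Cept1 and 195 CPM in the control library (0.83, 0.70 to 0.97). Synpo2 was there at 144 CPM in the Cept1 and 75.7 CPM in the control library (0.92) and Vcl at 252 CPM in the Cept1 and 146 CPM in the control library (0.79). Within the capillary cells Acta2 was at 53.0 CPM in the Cept1 library and 56.0 CPM in the control library (-0.08, -0.54 to 0.39). Tagln was at 76.8 CPM in the Cept1 and 51.4 CPM in the control library (0.58, 0.14 to 1.03), and Vcl at 228 CPM in the Cept1 and 244 CPM in the control library (-0.10). Prkg1 was at 248 CPM in the Cept1 and 59.7 CPM in the control library there (2.06, 1.70 to 2.42). The 5% of capillary cells with the most held 86.2% of its UMIs in the Cept1 and 87.3% in the control library. The cells that met neither definition, 75 of the Cept1 library and 52 of the control library, had Acta2 at 792 CPM in the Cept1 and 86.1 CPM in the control library (3.20, 2.73 to 3.71). The 5% of these cells with the most held 82.6% of its UMIs in the Cept1 and 51.3% in the control library. Tagln was at 555 CPM in the Cept1 and 181 CPM in the control library there (1.62, 1.26 to 1.99), and Prkg1 at 933 CPM in the Cept1 and 424 CPM in the control library (1.14). Acta2 was thus higher in the Cept1 library in the arterial and the remaining cells, whereas its interval in the capillary cells included 0, and the difference between the subsets was not tested.

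Markers of other cells were also measured within the subsets. The 15 smooth muscle markers of the gate, none of them among the 33 genes, summed to 234 CPM in arterial cells of the Cept1 library and 217 CPM in those of the control library (0.11, -0.03 to 0.25), with Nrip2, Casq2 and Olfr558 at 0 in a library. The 8 fibroblast markers summed to 656 CPM in the Cept1 and 727 CPM in the control library (-0.15) with none at 0. The 8 pericyte markers summed to 7.92 CPM in the Cept1 and 10.6 CPM in the control library with Kcnj8, Higd1b and Cox4i2 at 0 in a library. In capillary cells the smooth muscle markers summed to 215 CPM in the Cept1 and 201 CPM in the control library (0.09, -0.14 to 0.33) with Nrip2 and Casq2 at 0 in a library. Fibroblast markers, however, were higher in capillary cells of the Cept1 library, with 307 CPM against 210 CPM in those of the control library (0.55, 0.33 to 0.76) and none at 0. Pericyte markers there summed to 254 CPM in the Cept1 and 245 CPM in the control library (0.05) with Vtn at 0 in a library. In the cells that met neither definition the pericyte markers summed to 345 CPM in the Cept1 and 104 CPM in the control library (1.73, 1.27 to 2.22), with Abcc9, Higd1b, Vtn and Cox4i2 at 0 in a library. Fibroblast markers summed to 810 CPM in the Cept1 and 567 CPM in the control library (0.51) with none at 0, and smooth muscle markers to 433 CPM in the Cept1 and 362 CPM in the control library (0.26, -0.03 to 0.55) with Nrip2, Map3k7cl, Casq2, Itih4 and Sh3bgr at 0 in a library. The part of such cells in the contractile gene levels was not tested.

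**Figure D3:**
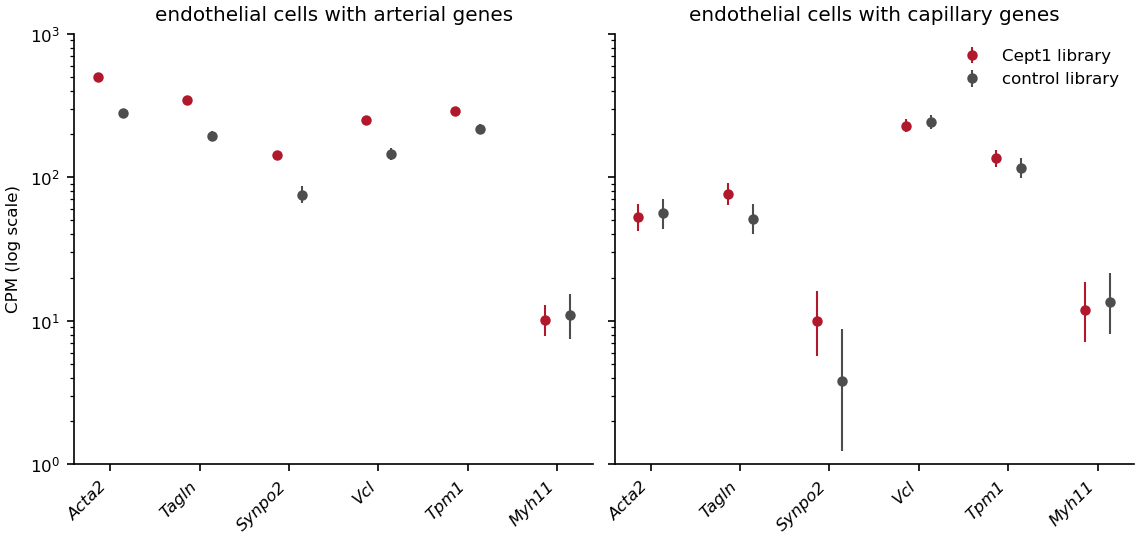
CPM on a log scale of 6 contractile genes in endothelial cells with arterial genes (left) and with capillary genes (right), in the Cept1 library and the control library; points are levels and bars exact 95% counting intervals. Acta2, Tagln, Synpo2 and Vcl lie higher in the Cept1 library among arterial cells, whereas Acta2 and Vcl overlap among capillary cells and Myh11 lies near 10 CPM in all.

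Acta2 was unevenly spread among arterial cells. A UMI was found in 358 of 726 cells of the Cept1 library and 130 of 265 of the control library, and at least 20 were found in 39 cells of the Cept1 and 7 cells of the control library. The 5% of cells with the most Acta2 held 56.8% of its UMIs in the Cept1 library against 60.3% in the control library. With cells of the whole endothelial class thinned to 2000 UMIs, Acta2 was seen in 23.9% (21.4 to 26.6) of cells of the Cept1 library and 16.8% (13.6 to 20.5) of those of the control library. Tagln was seen in 20.5% in the Cept1 and 15.5% in the control library. Without thinning the Acta2 shares were 40.8% in the Cept1 and 38.1% in the control library.

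In the remaining classes many of the genes past the threshold lay at the floor. In lymphatic endothelial cells 5 of 22 measured genes passed (13.9% of all genes), 4 of them higher. The lower one, Pdlim3, a PDZ-LIM protein, had 79.3 CPM in the Cept1 library and 153 CPM in the control library (-0.95, -1.21 to -0.69). In macrophages 11 of 24 passed (9.84% of all genes), 10 of them higher. Mylk was the lower one, with 25.2 CPM in the Cept1 library and 36.0 CPM in the control library (-0.52, -0.75 to -0.28), while Tagln, Tpm2, Cald1, Myl9, Cnn1, Synpo2, Ppp1r14a and Itga8 were all under 1% of the smooth muscle level in both libraries. In monocytes or dendritic cells 4 of 10 passed (20.6% of all genes), in neutrophils 3 of 7 (41.7%), in T or NK cells 5 of 15 (21.5%) and in B cells 10 of 15 (22.7%). Flna and Vcl are made by leukocytes: Flna was higher in T or NK cells of the Cept1 library, with 171 CPM against 110 CPM in the control library (0.63, 0.43 to 0.84). Vcl was higher in T or NK cells too (0.88, 0.37 to 1.37) and in B cells (0.60, 0.02 to 1.17). Both genes were lower in neutrophils of the Cept1 library. Vcl had 63.5 CPM there against 108 CPM in those of the control library (-0.77, -1.44 to -0.12), and Flna was at -0.73 (-1.07 to -0.40).

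Over the 5 immune classes, 2169 cells in the Cept1 library against 2055 in the control library, Myh11 had 196 UMIs in the Cept1 and 167 UMIs in the control library (log2 ratio 0.28, -0.02 to 0.59). Acta2 had 753 UMIs in the Cept1 and 592 UMIs in the control library (0.40, 0.24 to 0.56). The 19 genes of the floor had a median ratio of 0.63 in this pool, with 17 of the 19 above 0. Myl9 (0.81) and Tagln (0.63) were among them, at 0.40% and 0.21% of the smooth muscle level in the Cept1 library and 0.20% and 0.12% in the control library. In this pool the floor thus differed between libraries by an amount that passes the threshold. The makeup of the pool differed too, with 1502 macrophages of the Cept1 library against 678 of the control library. It held 243 T or NK and 200 B cells of the Cept1 library, against 629 and 584 of the control library. The part of this mix in the difference was not tested. Ratios of genes at the floor were not read as expression in these cells.

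Myocd did not follow the floor. It was found in all 9 classes of at least 50 cells in each library, smooth muscle aside, at 44.1 to 123 CPM in the Cept1 library and 12.1 to 25.3 CPM in the control library, and was higher in the Cept1 library in each. It stood at 59.5 CPM in fibroblasts of the Cept1 library and 19.8 CPM in those of the control library (1.59, 1.45 to 1.73). In endothelial cells it had 62.0 CPM in the Cept1 and 17.0 CPM in the control library (1.86, 1.52 to 2.22). Macrophages had 67.5 CPM in the Cept1 and 19.5 CPM in the control library (1.79, 1.54 to 2.05). T or NK cells had 83.1 CPM in the Cept1 library and 18.9 CPM in the control library (2.14, 1.76 to 2.52). B cells had 102 CPM in the Cept1 and 19.6 CPM in the control library (2.38, 1.92 to 2.84), and neutrophils had 64 UMIs in the Cept1 and 10 UMIs in the control library (2.62, 1.65 to 3.75). Lymphatic endothelial cells (1.37), monocytes or dendritic cells (1.89) and Schwann cells (1.59, on 19 UMIs in the Cept1 and 8 UMIs in the control library) went the same way. Among smaller classes, mast cells had 7 UMIs in the Cept1 and 2 UMIs in the control library. Mesothelial cells went the other way, with 0 UMIs in 15 cells of the Cept1 library, which allows up to 13.8 CPM, and 19 UMIs in 12 cells of the control library (82.1 CPM), 18 of them in 1 cell. Over the 9 classes Myocd had 3717 UMIs in the Cept1 library against 1026 in the control library, a log2 ratio of 1.71 (1.61 to 1.81), beside 0.47 in smooth muscle.

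**Figure D4:**
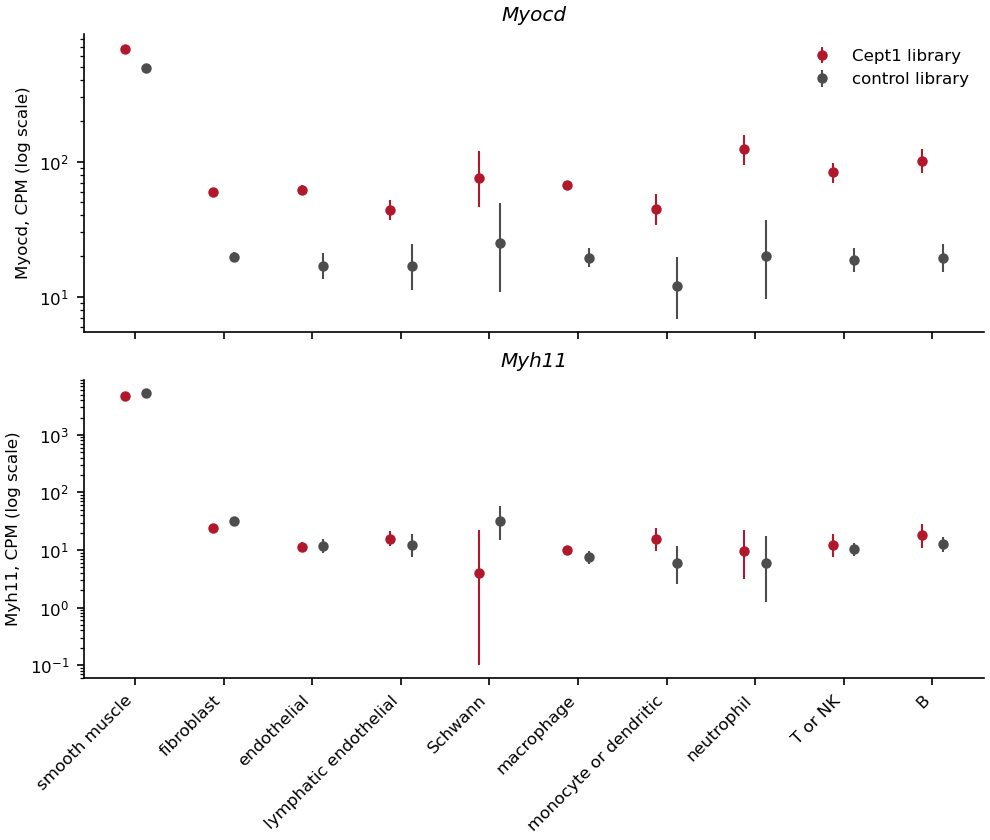
CPM on a log scale of Myocd (top) and Myh11 (bottom) in smooth muscle and 9 other classes, Cept1 library beside control library; bars are exact 95% counting intervals. Myocd lies higher in the Cept1 library in all 10 classes, while Myh11 lies higher there in some classes and lower in others, with 1 UMI in Schwann cells of the Cept1 library and 10 in those of the control library.

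As a percentage of its smooth muscle level, Myocd was at 12.3% in T or NK cells of the Cept1 library. In those of the control library it was at 3.86%. The 19 genes of the floor reached at most 0.74% there in the Cept1 and 0.48% in the control library. They had been picked for being at or below 1% in these cells, so that limit was set in advance. Of the genes not picked, Ppp1r12b was at 11.8% in the Cept1 and 12% in the control library. Myl6 was at 10.1% in the Cept1 and 7.95% in the control library. Myocd was at 15.0% in B cells, 18.2% in neutrophils and 8.77% in fibroblasts of the Cept1 library, against 3.99%, 4.09% and 4.04% in those of the control library. In the control library the counting intervals of all 9 levels, from 12.1 CPM in monocytes or dendritic cells to 25.3 CPM in Schwann cells, overlapped with that of fibroblasts. In the Cept1 library the intervals of neutrophils, B cells and T or NK cells overlapped with each other, and all 3 lay above that of fibroblasts. The number of UMIs of Myocd for each UMI of Myh11 was 0.14 in smooth muscle of the Cept1 library and 0.09 in that of the control library. It was 6.81 in T or NK cells and 6.71 in macrophages of the Cept1 library and 1.83 and 2.63 in those of the control library. The source of the Myocd UMIs in these classes was not tested. Per cell, Myocd had 0.35 to 0.59 UMIs in the 9 classes of the Cept1 library and 0.12 to 0.22 in those of the control library.

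The share of cells with a UMI differed as well. With cells thinned to 2000 UMIs, Myocd had a UMI in 12% (8.21 to 16.8) of T or NK cells of the Cept1 library and 3.86% (2.49 to 5.70) of those of the control library. Without thinning the shares were 21.4% in T or NK cells and 23.0% in B cells of the Cept1 library, against 9.38% and 7.02% in those of the control library. Myh11 was seen in 7.82% of T or NK cells of the Cept1 library and 7.0% of those of the control library, at median depths of 6383 UMIs in the Cept1 and 7464 UMIs in the control library. Whether the Myocd UMIs of lymphocytes were background or expression was not tested.

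Myocd also stood apart when all genes were set to the same question, at a log2 ratio of 1 rather than 0.5. Genes past 0.5 in every class were not counted. The screen used the same values as above, so it describes them and is no separate support. The UMI minimums below are over both libraries together. Of 4439 genes with at least 10 UMIs in each of the 9 classes, Myocd alone had a log2 ratio of 1 or more in every class, and none had a ratio of -1 or less in every class. With a minimum of 20 UMIs it was again alone, among 2742 genes, and with a minimum of 5 UMIs, among 6265 genes, it was joined by Ccl8, a chemokine gene. Its neighbours Arhgap44, Elac2 and Map2k4 on chromosome 11 had ratios near 0 in these classes. Myocd lies at chr11:65176561-65269989 on the minus strand (GRCm38, GENCODE vM21). Arhgap44 (chr11:65002039-65162961) was at 32.6 CPM in the Cept1 library and 30.7 CPM in the control library (0.09, -0.01 to 0.18). Elac2 was at 7.91 CPM in the Cept1 and 7.11 CPM in the control library (0.15), and Map2k4 at 61.5 CPM in the Cept1 and 63.6 CPM in the control library (-0.05). In smooth muscle the long noncoding RNA gene Gm12295 (chr11:65277654-65365798, minus strand) had 186 UMIs in the Cept1 library against 119 in the control library (1.00, 0.66 to 1.35), and in the 9 other classes 14 UMIs in the Cept1 and 10 UMIs in the control library.

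Barcodes outside the cell filter, with under 500 genes or over 10% mitochondrial UMIs, held more Myocd than cells of the 9 classes. Over 6560 such barcodes of the Cept1 library and 5620 of the control library, Myocd was at 538 CPM in the Cept1 and 188 CPM in the control library (1.52, 1.45 to 1.59), which is 79.3% of its smooth muscle level in the Cept1 and 38.3% in the control library. The other 32 genes were at 7.50% to 30.1% in the Cept1 library and 7.40% to 36.9% in the control library, with medians of 12.6% in the Cept1 and 12% in the control library. Myh11 was at 461 CPM in these barcodes of the Cept1 library and 500 CPM in those of the control library (-0.12). Across all barcodes, Myocd was highest in those with 300 to 500 genes, at 1005 CPM in the Cept1 library and 334 CPM in the control library, and lowest in those with 2000 to 3000 genes, at 108 CPM in the Cept1 and 43.5 CPM in the control library. Below 300 genes, where haemoglobin genes took 69.7% of UMIs in the Cept1 and 73.1% in the control library, it was at 403 CPM in the Cept1 and 100 CPM in the control library. Which barcodes outside the filter held debris, nuclei or free RNA was not tested.

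**Figure D5:**
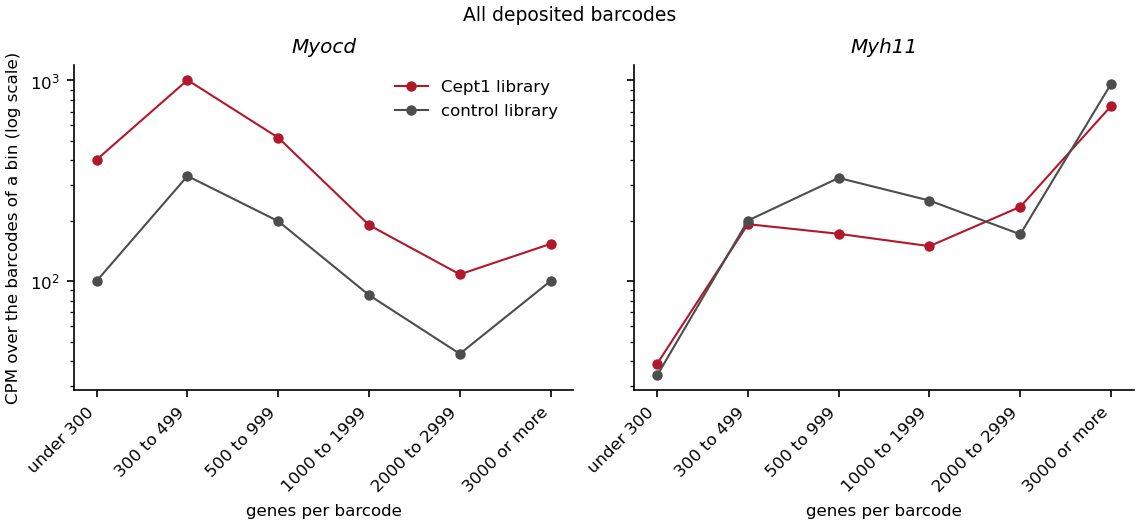
CPM on a log scale of Myocd (left) and Myh11 (right) over all deposited barcodes, grouped by the number of genes per barcode, in the Cept1 library and the control library. Myocd is higher in the Cept1 library in all 6 groups and peaks in barcodes with 300 to 500 genes (1005 CPM in the Cept1 and 334 CPM in the control library), while Myh11 peaks in those with 3000 genes or more.

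By class pattern, the gene most like Myocd was Rasl12, a Ras-like GTPase gene that is also 1 of the 15 gate markers of smooth muscle, with a Pearson r of 0.95 over 20 class-by-library levels on the log2(CPM + 1) scale among 7902 genes. It was followed by Tbx20 (0.86), Dsp (0.85), Erbb4 (0.85) and Actc1 (0.84). The 20 points share libraries and depth, and r is given as a description. Over the 9 other classes Rasl12 was at 23.0 CPM in the Cept1 library and 12.4 CPM in the control library (0.89, 0.76 to 1.03) and Tbx20 at 0.91 CPM in the Cept1 and 0.32 CPM in the control library (1.52). Erbb4 was at 13.2 CPM in the Cept1 and 9.03 CPM in the control library (0.54) and Dsp at 2.29 CPM in the Cept1 and 2.16 CPM in the control library (0.08).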

How the data were processed

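The 2 deposited matrices hold counts, UMIs per gene and barcode, deposited by the authors; per the file headers the program was Cell Ranger 7.2.0, and Seurat and mm10 stand in the submitters' processing notes. Which annotation, strand setting and treatment of introns were used is not given in the sources. The cell filter asked for 500 genes or more and no more than 10% mitochondrial UMIs (11168 cells in the Cept1 library, 8729 in the control library), and 533 doublets of the Cept1 library and 183 of the control library were removed with Scrublet in scanpy 1.11.5 at a score of 0.237, the threshold of the Cept1 library, since the control library's own threshold of 0.703 called 0. Cells meeting exactly 1 class, 9083 of the Cept1 library and 6979 of the control library, were summed. A ratio is the log2 of Cept1 CPM over control CPM with an exact Clopper-Pearson 95% interval. On simulated data 100% of genes set at a log2 of 1 in smooth muscle were past the threshold, as were 2.79% of unchanged genes. The simulation held counting noise only, with no variation between cells, animals or libraries, so the 2.79% is no error rate for these data. Every gene of the set was named, the 4 largest ratios of each list, and the 5 genes most like Myocd. The members and lists were chosen with earlier results of these data known.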

Additional observations from a re-analysis of the deposited data

Results flagged for a closer look

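Several genes had a log2 ratio past the threshold in a class while their ratio in smooth muscle had the opposite sign, both with intervals that left out 0. The difference between the classes was not tested. In endothelial cells these were Acta2 (1.13), Tagln (1.02), Lmod1 (1.32), Myl9 (0.57) and Tpm1 (0.51), each lower in smooth muscle of the Cept1 library. In lymphatic endothelial cells Tagln was at 0.58. In macrophages Myl9 was at 0.85, Tagln at 0.69, Tpm2 at 0.58 and Cald1 at 0.77, and in monocytes or dendritic cells Tpm1 was at 0.74. In T or NK cells Myl9 was at 0.86 and Flna at 0.63, and in B cells Tagln was at 0.71 and Cald1 at 1.08. In Schwann cells, 55 in the Cept1 library against 59 in the control library, Acta2 was at 0.93 and Cald1 at 0.57. In neutrophils Vcl was at -0.77, against 0.18 in smooth muscle. Of these, Myl9, Tagln, Tpm2 and Cald1 in macrophages stood under 1% of their smooth muscle level in both libraries. So did Myl9 in T or NK cells, Tagln and Cald1 in B cells and Myl9 in endothelial cells. Acta2 in Schwann cells was also under 1%, at 0.77% in the Cept1 and 0.37% in the control library.

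Barcodes outside the cell filter, which enter no class, held Myocd at a log2 ratio of 1.52, with 538 CPM in the Cept1 library and 188 CPM in the control library, while the other 32 genes had a median ratio of -0.00 there.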

How the results depend on the processing

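No paired analysis was possible because each group has 1 library, and for the same reason no replicate could be left out. With TMM scaling, with the 33 genes left out of the total, or with mitochondrial and ribosomal protein genes left out, all 33 smooth muscle ratios stayed within their intervals with no change of sign. Other choices moved more of them. With a stricter cell filter, 1000 genes and 5% mitochondrial UMIs, 18 of 33 ratios lay outside their intervals and 4 had the other sign (Myl6, Pln, Kcnmb1 and Itga8); Prkg1 was at -0.29, Mylk at -0.27 and Pdlim3 at 0.31. With cells thinned to 2000 UMIs these counts were 17 and 6 (Myl6, Smtn, Mylk4, Ppp1r12b, Kcnmb1 and Des), and with at most 1 marker of another class 15 and 4 (Kcnmb1, Actn1, Pdlim7 and Itga8). No gene of the set was lower by the threshold under any alternative. With the stricter filter the Myocd ratio in smooth muscle was 0.59, which made 1 gene higher, and with free RNA subtracted it was 0.38. The count of higher genes was 1 (Pln, 0.53) with cells thinned to 2000 UMIs, where the median ratio was 0.022. It was 1 (Pln, 0.68) in cells with at most 1 marker of another class, whereas Pln was at -0.26 with the stricter filter. Among all genes measured in smooth muscle, 12.7% were past the threshold in either direction with the stricter filter. That share was 28.8% with thinned cells and 12.9% with at most 1 marker of another class, beside 9.17% in the main analysis.

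The Myocd ratio over the other classes was 1.89 with every cell weighted equally, 1.86 with the stricter filter on genes and mitochondrial UMIs, 1.55 with at most 1 marker of another class, and 1.82 with at least 2000 genes per cell, an alternative chosen after seeing the data. Its level in T or NK cells of the Cept1 library, as a percentage of smooth muscle, was 9.62% with the stricter filter and 9.86% with at most 1 other marker. In those of the control library it was 4.73% without mitochondrial and ribosomal protein genes, 5.50% with equal cell weights and 2.61% with the stricter filter. That of Myh11 was 0.15% with the stricter filter in the Cept1 library and 0.26% with equal weights in the control library.

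The endothelial ratio of Acta2 was 0.99 with equal weights and with 1 fewer smooth muscle marker required, 1.37 with the stricter filter, 0.94 with a gate on Myh11, Acta2, Tagln and Cnn1, 1.26 with at most 1 other marker, 0.83 in arterial cells and -0.077 in capillary cells. That of Tagln was 1.20 with the stricter filter, 0.82 with the gate on those 4 genes, 1.31 with at most 1 other marker, 0.83 in arterial cells and 0.58 in capillary cells. The cause of these shifts was not tested. Low counts limit what can be read: Pln rested on 151 UMIs in smooth muscle of the Cept1 library and 162 in that of the control library.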
